A study of Mus musculus with 18 samples.

Results

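The cluster histone genes are the genes that encode the replication-dependent histones H1, H2A, H2B, H3 and H4. They were chosen by name, as every gene of the expression table whose symbol starts with Hist, a digit and h, which gave 70 of 34896 genes. Of these, 6 encode H1, 20 H2A, 19 H2B, 12 H3 and 13 H4. By name 56 belong to the Hist1 cluster, 10 to Hist2, 3 to Hist3 and 1 to Hist4. The annotation lists 67 as protein-coding and 3 as pseudogenes (Hist1h2aj, Hist1h2al and Hist3h2bb-ps).

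The study asked how the transcription factor GFI1 and the nucleosome remodeler CHD4 act together on chromatin while neutrophils form. RNA-seq was done on granulocyte-monocyte progenitors (GMPs), pre-neutrophils (preNeu) and mature neutrophils (matNeu), with 3 libraries each, all from the bone marrow of wild type (WT) C57BL/6 mice aged 6 to 12 weeks. CHD4 ChIP-seq was done on GMPs of WT and of Gfi1-/- mice of the same strain and age, with 1 library each, and ChIP-seq for dimethylated lysine 4 of histone H3 (H3K4me2) on WT GMP, preNeu and matNeu, with 1 library each. ATAC-seq, which marks open chromatin, gave 1 peak list that stands under both the preNeu and the matNeu title. The GMPs were sorted by flow cytometry as lineage-negative cells with cKIT, CD16/32 and CD34 and without SCA. Nothing in the labels says whether the 3 RNA-seq libraries of a cell type came from separate animals, so the p-values measure only the spread between these libraries. A cell type label goes against the title for 13 of 18 samples, namely all 9 RNA-seq libraries, the preNeu and matNeu H3K4me2 libraries and both ATAC-seq titles. The titles were followed, and for the peak lists no marker check of the cell type was possible. The summed level of 5 fixed GMP markers was 42519 to 44120 TPM (a share of transcripts, scaled by gene length) in the GMP libraries, 7559 to 8639 in preNeu and 6.18 to 25.8 in matNeu, and the preNeu and matNeu markers were likewise highest in the libraries titled so.

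Replication-dependent histone genes are transcribed mainly in S phase, when new DNA has to be packed into nucleosomes. Their mRNAs end in a short stem-loop in place of a poly(A) tail, which the stem-loop binding protein SLBP recognises, and the transcription factor NPAT drives many of them. Cells that stop dividing shut most of them down, and GMP and preNeu divide while matNeu do not. The libraries were made with a kit that selects poly(A) RNA, so a histone transcript that ends at its stem-loop and one that carries a poly(A) tail are not measured alike, and a TPM here is a level per transcript length of what that kit caught. In bulk samples, fewer cells of a type and less RNA per cell cannot be told apart.

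The stem-loop is shown because it marks the class and because its letters set the H4 genes apart from the other types. It was searched as a 6-base stem, a 4-base loop and the matching 6-base stem within 100 bases after the stop codon (GRCm38), and the capitals mark both arms of the stem. A match was found after 65 members and after 67 of all 21664 coding genes (0.309%), at 22 to 59 bases past the stop codon with a median of 31. All 8 forms paired at every stem position. Hist1h1b, Hist1h1c, Hist1h2ap, Hist1h2bc and Hist2h2aa1 are among the 41 members with the commonest form, and the H4 genes are the members with the GGCCC or GGTCC arms.
Form of 41 members, at chr13:23739512-23739527 (plus strand) in Hist1h1c: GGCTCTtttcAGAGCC
Form of 9 members, at chr13:23561903-23561918 (minus strand) in Hist1h3e: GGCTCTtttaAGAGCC
Form of 8 members, all H4, at chr13:21831798-21831813 (minus strand) in Hist1h4n: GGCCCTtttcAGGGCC
Form of 2 members, both H4, at chr13:22040966-22040981 (minus strand) in Hist1h4i: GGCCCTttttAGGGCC
Form of 2 members, both H4: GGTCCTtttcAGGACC
Form of Hist1h3g alone, at chr13:23535889-23535904 (plus strand): GGCTCTtcttAGAGCC
The other 2 forms stood after 1 member each. The coding members without a match were Hist2h2be and Hist1h2an. Members of the commonest form moved both ways. Hist1h2ap and Hist2h2aa1, which moved in opposite directions between preNeu and matNeu, carried the same 16 bases.

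Many members are near-identical copies. The 13 H4 genes encode 1 protein and the 12 H3 genes encode 2, whereas the 18 coding H2A genes encode 9, the 18 coding H2B genes 11 and the 6 H1 genes 6. Over the members, a median of 38.97% of the 31-base stretches of a gene's transcripts were found in no other gene. That share was 96.18% for H1, 52.06% for H4, 43.71% for H2B, 36.95% for H3 and 19.17% for H2A, and 27 members reached 50%. It was 0% for Hist2h2aa1, Hist2h2aa2, Hist2h3b, Hist2h3c1 and Hist2h2bb. Reads of such copies can be split between them in ways the TPM values do not show, so the level of a single copy is uncertain, and 7 families of 20 genes that shared at least 80% of their 31-base stretches were also summed.

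Over all members, the summed level was 314, 701 and 512 TPM in the GMP libraries, 961, 787 and 696 in preNeu, and 1297, 932 and 1019 in matNeu. The means were 509 ± 193, 815 ± 135 and 1083 ± 191 TPM (SD, n = 3). The preNeu range overlapped both the GMP and the matNeu range. The types went different ways. Summed H1 was 48.7 ± 13.3 TPM in GMP, 70.5 ± 3.89 in preNeu and 334 ± 71.4 in matNeu (SD, n = 3), and H2B was 79.2 ± 17, 67.1 ± 15.6 and 350 ± 62.5 TPM. H4 was 48.6 ± 13.0, 38.9 ± 8.87 and 137 ± 31 TPM in the same order. For H1, H2B and H4 every matNeu library lay above every GMP and preNeu library. H2A was highest in preNeu, with 306 ± 157, 616 ± 117 and 246 ± 90.6 TPM, and H3 was low throughout, with 26.6 ± 10.1, 22.2 ± 3.69 and 15.7 ± 2.56 TPM. By cluster, Hist2 stood at 28.2 ± 8.04, 24.6 ± 6.37 and 182 ± 68.5 TPM and Hist3 at 9.33 ± 3.8, 4.41 ± 1.80 and 19.2 ± 1.51 TPM. In matNeu the near-identical pair Hist2h2aa1 and Hist2h2aa2 gave 179 ± 68.4 TPM of the Hist2 sum. Of 8 tested Hist2 members 2 rose and 3 fell from preNeu to matNeu. These sums over chosen genes are a description and were not tested. TPM add up to the same total in every library, so a level here is a share of the transcripts caught.

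**Figure D1:**
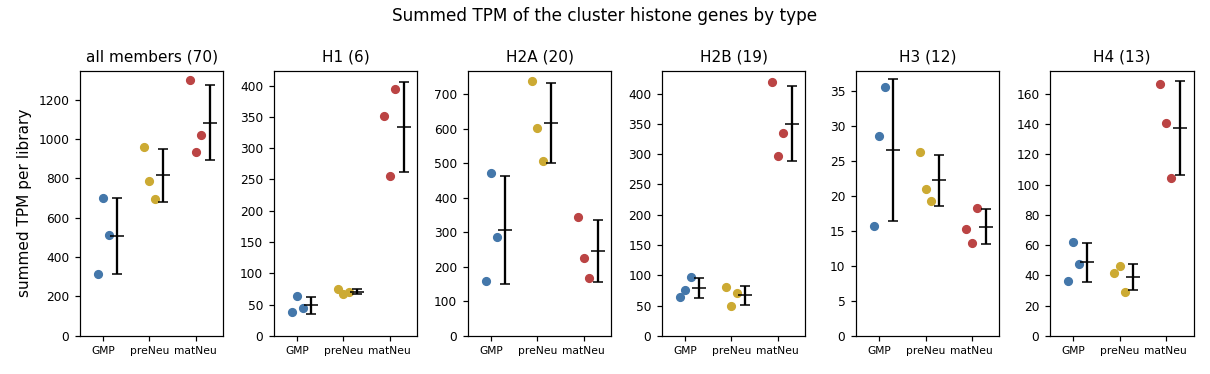
Summed TPM of the cluster histone genes in each library (y axis, linear, from 0), for all 70 members and for each histone type, with the number of members in brackets. Each point is 1 of 3 libraries of GMP, preNeu or matNeu, and the black marks give the mean ± SD. H1, H2B and H4 are highest in matNeu, H2A is highest in preNeu (616 TPM), and H3 stays at 35.7 TPM or below.

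The 3 comparisons share libraries and were fitted together with limma on log2(TPM + 1) over the 13061 genes that reached 1 TPM in 3 or more libraries, at a Benjamini-Hochberg adjusted p of 0.05. Of the 70 members, 50 passed that filter on low values and 20 did not, among them 4 at 0 in all 9 libraries (Hist1h2al, Hist1h2ba, Hist1h4a and Hist1h4b). The median change of all tested genes was -0.52 (log2) from GMP to preNeu, -0.92 from GMP to matNeu and -0.32 from preNeu to matNeu, and that of the tested members was -0.05, -0.20 and -0.03. Changes below are on the deposited scale, and relative to all genes each lies higher by the size of that median.

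Between preNeu and matNeu, 13 tested members rose and 14 fell, while 22.9% of all tested genes rose and 39.8% fell. The changes went both ways within H1, H2A, H2B and H4. Among H1 genes 1 of 4 tested rose and 1 fell, among H2A 4 of 14 rose and 6 fell, among H2B 4 of 15 rose and 4 fell, among H4 4 of 9 rose and 1 fell, and among H3 none of 8 rose and 2 fell. Among the 27 members called, the direction was the same under every alternative in which they were tested, and 26 stayed past the threshold in each. The exception was Hist1h2an.

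**Figure D2:**
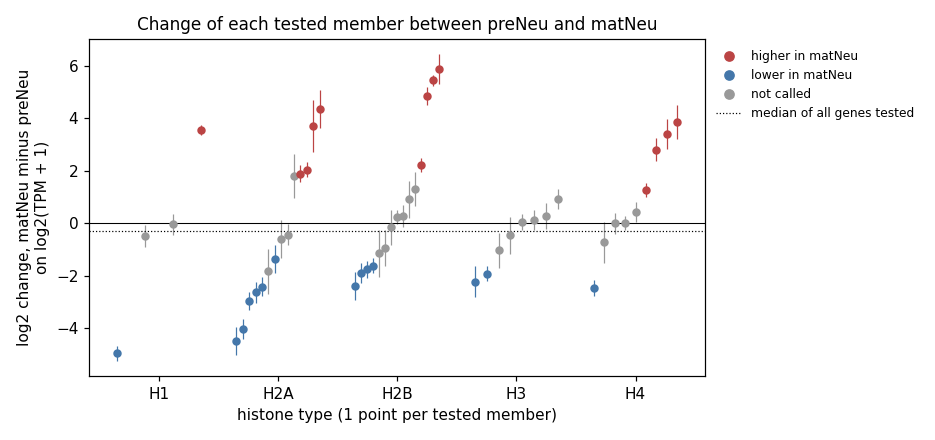
Change from preNeu to matNeu of each of the 50 tested members on log2(TPM + 1) (y axis), grouped by histone type, with the standard error as bars. Red points rose, blue points fell and grey points were not called (limma, adjusted p of 0.05), and the dotted line is the median of all tested genes at -0.32. Both directions occur in H1, H2A, H2B and H4, and the 13 that rose reach 5.88.

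Linker histone H1 binds the nucleosome where DNA enters and leaves it. Hist1h1b (chr13:21779883-21780625) stood at 19.0, 33.8 and 20.2 TPM in GMP, 36.9, 34.7 and 32.8 in preNeu and 0, 0.485 and 0 in matNeu. It fell by 4.97 from preNeu to matNeu on the log2(TPM + 1) scale (SE 0.28, limma adjusted p = 7.63e-08). Hist1h1c (chr13:23738808-23740367) stood at 16.2, 19.3 and 19.1 TPM in GMP, 26.8, 23.0 and 30.0 in preNeu and 339, 251 and 384 in matNeu, and rose by 3.55 (SE 0.18, limma adjusted p = 4.32e-08). For both genes the matNeu libraries lay apart from all GMP and preNeu libraries. The share of all H1 transcripts that came from Hist1h1c was 37.7 ± 4.27% in preNeu and 97.3 ± 1.08% in matNeu, and that of Hist1h1b was 49.4 ± 2.80% and 0.0633 ± 0.110% (SD, n = 3). These H1 genes share little sequence, and 96.1% and 88.6% of the 31-base stretches of Hist1h1b and Hist1h1c were their own. Hist1h1e overlaps Hist1h2be, shares 24.5% of its stretches with it, and stood at 7.32 to 9.78 TPM in preNeu and 3.55 to 12.8 in matNeu, with no call between them.

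H2A pairs with H2B beside the H3-H4 core of the nucleosome. Hist1h2ap (chr13:21833026-21833507) was the most abundant member of all in preNeu, with 109, 380 and 182 TPM in GMP, 649, 509 and 451 in preNeu and 45.7, 26.9 and 9.19 in matNeu. It fell by 4.49 from preNeu to matNeu (SE 0.53, limma adjusted p = 2.6e-05). Its near-identical neighbour Hist1h2ao shares 93.8% of its stretches with it, and the pair summed fell by 4.0 (SE 0.45, limma adjusted p = 1.67e-05). Hist1h2ab fell by 4.04, from 20.8, 21.5 and 15.2 TPM to 0.779, 0 and 0, and the sum of the 7 near-identical genes Hist1h2ad, Hist1h2af, Hist1h2ag, Hist1h2ah, Hist1h2ai, Hist1h2aj and Hist1h2an fell by 3.31 (limma adjusted p = 1.24e-04). The Hist2 pair Hist2h2aa1 (chr3:96245497-96246082) and Hist2h2aa2 (chr3:96239749-96240276) went the other way. The pair encodes 1 protein. Hist2h2aa1 shares 89.6% of its stretches with Hist2h2aa2, and the rest also occur in overlapping gene models that the expression table does not list. The pair summed to 10.7, 11 and 3.22 TPM in preNeu and 250, 172 and 114 in matNeu, and rose by 4.35 (SE 0.48, limma adjusted p = 1.43e-05). In preNeu, 87.4 ± 2.38% of H2A transcripts came from Hist1h2ap and Hist1h2ao together and 1.30 ± 0.607% from the Hist2 pair. In matNeu these shares were 13.9 ± 2.69% and 72.4 ± 3.86% (SD, n = 3). The proteins of Hist1h2ap and Hist2h2aa1, translated from the annotated coding sequences, differ at 4 of 130 residues.

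Among H2B genes, Hist1h2bc (chr13:23684199-23692908) stood at 16.8, 14.8 and 15.1 TPM in GMP, 3.50, 3.18 and 2.39 in preNeu and 218, 149 and 159 in matNeu. It fell by 2.05 from GMP to preNeu (limma adjusted p = 1.21e-05) and rose by 5.44 from preNeu to matNeu (SE 0.20, limma adjusted p = 4.7e-09), with no overlap between any of the 3 cell types. The pair Hist1h2bq and Hist1h2br, of which the first has 1.743% of stretches of its own, summed to 0.441, 1.01 and 1.45 TPM in preNeu and 140, 109 and 133 in matNeu, and rose by 6.06 (SE 0.44, limma adjusted p = 5.82e-07). Hist1h2bg (chr13:23571396-23572013) stood at 38.1, 22 and 31 TPM in preNeu and 8.69, 6.53 and 12.7 in matNeu, and fell by 1.62 (SE 0.30, limma adjusted p = 7.26e-04). It encodes the same protein of 126 residues as Hist1h2bc, and the genes moved in opposite directions. Of the 31-base stretches of Hist1h2bg 43.7% were its own and 46.8% also occur in Hist1h2bc, so its level is uncertain. Hist1h2bg gave 45.1 ± 2.04% of H2B transcripts in preNeu and 2.68 ± 0.950% in matNeu, and Hist1h2bc 4.69 ± 1.54% and 49.8 ± 2.38% (SD, n = 3).

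The H4 genes all encode 1 protein. The near-identical pair Hist1h4m and Hist1h4n summed to 3.13, 11.5 and 2.84 TPM in preNeu and 93.4, 101 and 48.2 in matNeu, and rose by 3.74 (SE 0.49, limma adjusted p = 5.46e-05). Hist1h4i (chr13:22040636-22041362) rose by 1.27, from 19.1, 18.3 and 14.2 TPM to 52.0, 34.2 and 43.0 (SE 0.26, limma adjusted p = 0.0013). Hist1h4d, with 85.3% of stretches of its own, fell by 2.48, from 9.48, 9.20 and 9.02 TPM to 1.55, 0.269 and 0.906 (SE 0.29, limma adjusted p = 2.55e-05). Here too the preNeu and matNeu libraries did not overlap for any of these genes. Among H3 genes, Hist1h3d fell by 1.92, from 3.42, 2.26 and 4.17 TPM to 0, 0 and 0.366 (limma adjusted p = 1.32e-04), and Hist1h3g was listed at 0 in all 3 matNeu libraries and at 4.55, 2.24 and 4.91 TPM in preNeu. Hist1h3e, which encodes the same protein as Hist1h3d, stood at 7.23, 5.53 and 7.79 TPM in preNeu and 8.84, 3.90 and 11.5 in matNeu and was not called. It shares 75.2% of its stretches with Hist1h3f, so its level is uncertain.

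**Figure D3:**
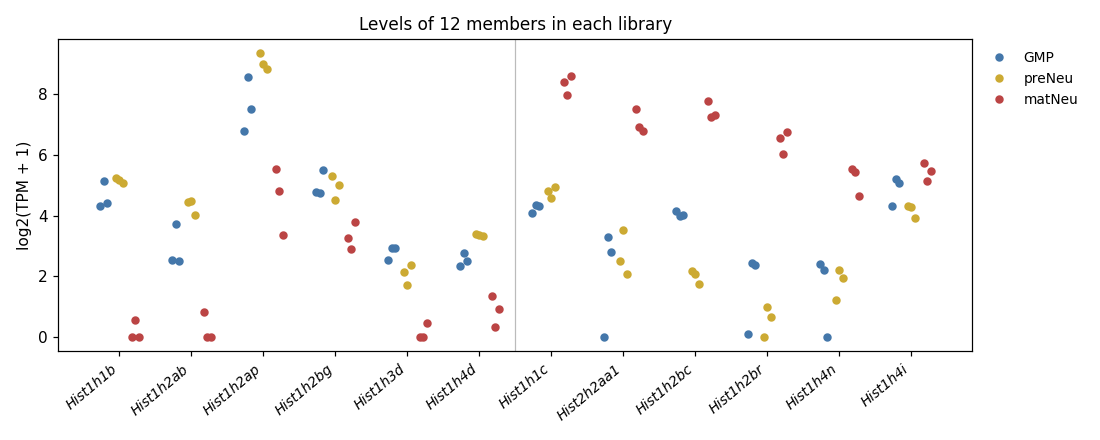
Level of 12 members on log2(TPM + 1) (y axis) in each of the 9 libraries, 1 point per library. The 6 genes left of the line fell from preNeu to matNeu and the 6 on the right rose, with Hist1h1c at 251 to 384 TPM and Hist1h1b at 0 to 0.485 TPM in matNeu.

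From GMP to preNeu, 6 tested members rose and 9 fell, where 14.7% of all tested genes rose and 44.3% fell. The calls split 9 higher and 4 lower when libraries were scaled by size factors, while of all 13061 tested genes 3068 rose and 3600 fell. Hist1h2ac fell by 1.60, from 4.79, 5.92 and 7.31 TPM to 1.84, 0.972 and 1.13 (SE 0.30, limma adjusted p = 8.64e-04), and Hist1h4k went from 3.89, 5.81 and 2.61 TPM to 0 in all 3 preNeu libraries. Hist1h1e rose by 1.38, from 1.74, 3.78 and 2.26 TPM to 9.78, 7.32 and 7.41 (SE 0.40, limma adjusted p = 0.0129). These 3 and Hist1h2bc were the 4 of 15 calls that held under every alternative in which they were tested, and Hist1h4k was not tested at 5 TPM or among members of mostly unique sequence. Hist1h2ap passed the test (log2 1.43, SE 0.53, limma adjusted p = 0.0389) but lost the call in 9 of 17 alternatives, and without GMP replicate 1, its lowest GMP library, 2 members rose in all. Leaving out preNeu replicate 1 left 2 rises and 5 falls, and leaving out preNeu replicate 3 left 3 rises.

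From GMP to matNeu, 12 tested members rose and 17 fell, where 22.8% of all tested genes rose and 54.1% fell. With size factors the split was 20 higher and 14 lower, while of all 13061 tested genes 4709 rose and 5267 fell. Hist1h1c rose by 4.07 (SE 0.18, limma adjusted p = 7.38e-09), Hist2h2aa1 by 5.04 (SE 0.72, limma adjusted p = 6.96e-05) and Hist1h2br by 4.81 (SE 0.56, limma adjusted p = 1.44e-05). Hist1h1b fell by 4.43 (SE 0.28, limma adjusted p = 8.51e-08), Hist1h2ap by 3.06 (SE 0.53, limma adjusted p = 3.07e-04) and Hist1h2ab by 2.65 (SE 0.38, limma adjusted p = 7.21e-05). Summed with their near-identical copies, the changes were smaller. The pair Hist2h2aa1 and Hist2h2aa2 rose by 3.70 (SE 0.48) and Hist1h2bq and Hist1h2br by 4.56 (SE 0.44). The pair Hist1h2ao and Hist1h2ap fell by 2.59 (SE 0.45). Hist1h2bg also fell, by 1.69, but was not called after quantile normalization.

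Annotated transcripts of the members end at different distances from the stem-loop. The annotation continues more than 50 bases past the stem-loop in 30 members and stops within 50 bases of it, or before it, in 35. Of the 13 that rose from preNeu to matNeu, 9 were of the first kind, with a median of 840 bases past the stem-loop over those with a match. Of the 14 that fell it was 5, with a median of 35 bases, and of the 23 not called it was 8. The annotated transcripts of Hist1h2bc run 8246 bases of genome past the stem-loop, those of Hist1h2bq and Hist1h2br 2469 and those of Hist1h1c 840. The first kind summed to 146 ± 16.2 TPM in preNeu and 764 ± 139 in matNeu, and the second to 656 ± 124 and 316 ± 118 TPM (SD, n = 3). The Hist2h2aa pair and the Hist1h4m and Hist1h4n pair, which rose, are of the second kind. The files give no reads, so where these transcripts ended was not measured, and the part of transcript ends and of the poly(A) selection in these changes was not tested.

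Genes that make, process and deposit histones were taken from lists by role. Of 18 S phase genes, all 18 fell from preNeu to matNeu, and the ribonucleotide reductase subunit Rrm2 went from 779, 866 and 824 TPM to 0.266, 4.65 and 3.74. Between these cell types 39.8% of all tested genes fell and 22.9% rose. Of 11 genes for histone mRNA synthesis and 3' end processing, 7 fell and 1 rose. Slbp fell by 2.21, from 450, 449 and 512 TPM to 99.8, 106 and 96.3 (limma adjusted p = 4.32e-08), and Npat by 2.75, from 13.8, 11.3 and 13.5 TPM to 1.05, 1.26 and 0.881 (limma adjusted p = 1.42e-06). The one that rose was Lsm10, a subunit of the U7 particle that cuts histone pre-mRNA, with 12.7, 21.4 and 11.2 TPM in preNeu and 123, 118 and 82.4 in matNeu. Of 12 histone chaperone genes, 10 fell and Cabin1 rose. Of 10 tested genes for replacement histones and other variants outside the clusters, most of which are not tied to S phase, 6 fell and 3 rose. H2afz, H2afx and the H1 variant H1f0 were among those that fell, and H3f3a (1042 to 1601 TPM in preNeu, 1743 to 2129 in matNeu), H3f3b and H2afj were those that rose. From GMP to preNeu 9 of the 18 S phase genes fell and 2 rose, near the shares of all tested genes (44.3% and 14.7%), and from GMP to matNeu all 18 fell. From GMP to preNeu the histone mRNA list had 1 rise and 4 falls, the chaperones 1 and 7 and the replacement histones 4 and 3. In the same order the counts from GMP to matNeu were 1 and 8, 0 and 10, and 2 and 7, where 22.8% of all tested genes rose and 54.1% fell.

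Markers of other cell types were measured beside these changes, with calls given for matNeu against preNeu. Among B cell markers, Cd79a stood at 0 to 0.603 TPM in GMP, 5.68 to 8.58 in preNeu and 16.2 to 33.1 in matNeu, Cd79b at 77.9 to 93.7, 17.3 to 27.4 and 25.1 to 53.9 TPM, and Pax5 at 0 in GMP and 1.46 to 3.06 TPM in matNeu. The 4 T and NK cell markers, of which the 1 tested rose, summed to 2.71 to 3.39, 0.768 to 2.99 and 8.24 to 14.1 TPM, with Cd3e at 0 to 0.0748 TPM in matNeu. The 4 monocyte and macrophage markers, of which 1 rose and 2 fell, summed to 249 to 347, 40.1 to 49.4 and 85.2 to 109 TPM, and the 5 erythroid markers, with 3 tested and 0 higher or lower, to 6.38 to 11.6, 3.74 to 5.00 and 3.01 to 7.70 TPM. Against GMP, 1 erythroid marker (Klf1) was lower in both preNeu and matNeu, the monocyte and macrophage markers had 1 higher and 2 lower in preNeu and 2 and 2 in matNeu, and the 1 tested T and NK cell marker was higher in matNeu and not called in preNeu. The part of such cells in the histone levels was not tested.

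At the promoters, taken as the 2 kb before the gene start and the first 500 bp after it, a CHD4 summit in WT GMPs was found for 60 of 70 members (85.7%), against 8.08% of 21938 coding genes. All 12 H3 and all 13 H4 genes had one, as did 5 of 6 H1, 14 of 20 H2A and 16 of 19 H2B genes. The 10 without were Hist1h1t, Hist1h2aa, Hist1h2al, Hist1h2ba, Hist2h2aa1, Hist2h2aa2, Hist2h2ab and the 3 Hist3 genes. The nearest summit lay a median of 157 bp downstream of the gene start, inside the short gene, and 46 of 60 lay between 0 and 300 bp downstream. The fold enrichment at these promoters ranged from 3.78 to 38.7 with a median of 16.5. Over the 65 distinct peaks the median was 12.1, and over the peaks at all coding promoters 6.89. The highest was 1 peak shared by Hist1h2bb and Hist1h3c (chr13:23746269-23747807, fold 38.7), and the next was shared by Hist1h1a and Hist1h3a (fold 36.4). Neighbouring members share peaks, so they are not separate measurements. Each peak list comes from 1 library and has no replicate check, so no test was made. Copies of near-identical sequence also share ChIP-seq reads, and how such reads were placed is not given in the sources used here.

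In Gfi1-/- GMPs a CHD4 summit was found for 16 of 70 members (22.9%), against 1.57% of coding genes, and all 16 also had one in WT. They were 2 H1, 3 H2A, 6 H2B, 5 H3 and 0 of 13 H4 genes. The Gfi1-/- list is shorter as a whole, with 7316 peaks against 35790. The paper counts far fewer CHD4 peaks in WT GMPs than this list holds. It reports that sites with CHD4 alone largely kept CHD4 without GFI1, and that most sites with both GFI1 and CHD4 lost it. For nucleosome assembly, the paper lists histone genes of the clusters among the genes occupied by both. The GFI1 peaks were not used here, so the members were not split by GFI1. Why the lists differ from the paper's peak set was not tested. Of the 65 WT peaks at member promoters, 10 overlapped a Gfi1-/- peak (15.4%), which is near the 16.4% of WT peaks at coding promoters and the 18.5% of all WT peaks. The highest fold in Gfi1-/- was 10.3, at the promoter shared by Hist1h2ah and Hist1h2bk (chr13:22035831-22036325), where the WT fold was 21.4. The members with a summit in both were Hist1h1a, Hist1h1b, Hist1h2ab, Hist1h2ah, Hist1h2ak, Hist1h2bb, Hist1h2bh, Hist1h2bk, Hist1h2bl, Hist1h2bn, Hist1h3a, Hist1h3b, Hist1h3c, Hist1h3f, Hist1h3h and Hist2h2bb. No RNA-seq of Gfi1-/- cells was analysed here, so the genotype was not checked by Gfi1 RNA. Beside the RNA changes from preNeu to matNeu in WT, a WT CHD4 summit was found for 10 of the 13 members that rose, for all 14 that fell and for all 23 not called, and a Gfi1-/- summit for 0, 4 and 8. The summit of the next WT peak lay 1547 bp downstream of the start of Hist2h2aa1 and 1473 bp downstream of that of Hist2h2aa2, outside the window.

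**Figure D4:**
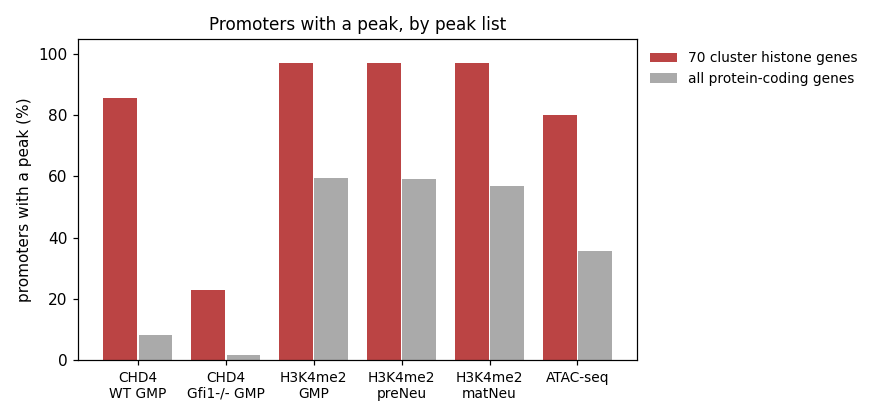
Share of promoters with a peak (y axis, percent) in each of 6 peak lists, for the 70 cluster histone genes (red) and for all coding genes (grey). Each list comes from 1 library, so there are no error bars. CHD4 in WT GMPs stands at 85.7% against 8.08%, and H3K4me2 at 97.1% in each cell type.

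H3K4me2, a mark of active and poised promoters, overlapped the promoters of 68 of 70 members (97.1%) in each of the 3 cell types, where 59.4% of coding promoters had a peak in GMP, 59.3% in preNeu and 56.9% in matNeu. The 68 promoters shared 37 distinct peaks in GMP, 24 in preNeu and 33 in matNeu, so neighbours are not separate measurements. The 2 without a peak in any were the neighbours Hist1h2aa and Hist1h2ba. The 68 others included genes listed at 0 TPM in matNeu, such as Hist1h3g, whose matNeu peak also lay over promoters of neighbouring members. The median fold of the peaks at member promoters was 3.21 in GMP, 11.6 in preNeu and 10.2 in matNeu, beside 3.53, 9.99 and 8.18 at coding promoters. At -log10 q of at least 5 the order in GMP was the other way, with a peak at 2 members (2.86%) against 25.5% of coding promoters, while 67 members (95.7%) kept one in preNeu and in matNeu, against 54.4% and 52.1%. An ATAC-seq peak overlapped 56 member promoters (80%), which shared 33 distinct peaks, against 35.8% of coding promoters.

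The members lie in 6 stretches of several genes, 422.896 kb in all, and as 2 single genes (Hist1h2al and Hist4h4). The largest stretches hold 29 members (chr13:23531050-23764406), 19 members (chr13:21715763-21837530) and the 10 Hist2 members (chr3:96219865-96270132). Over the 6 stretches, WT CHD4 summits stood at 21.8 per 100 kb against 1.31 over the genome, and Gfi1-/- summits at 3.78 against 0.266. These counts include summits that lie between the members. H3K4me2 peaks covered 28.9% of the stretches in GMP, 48.6% in preNeu and 33.6% in matNeu, beside 1.83%, 3.59% and 2.95% of the genome. Coverage was highest in preNeu in both.

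**Figure D5:**
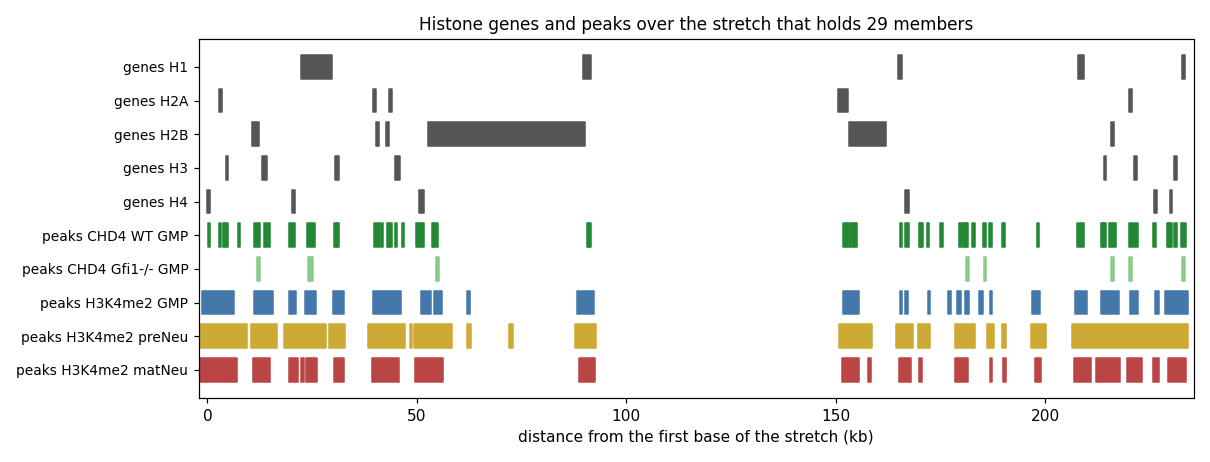
Map of the stretch of chromosome 13 that holds 29 members, with distance from its first base in kb on the x axis. Grey bars are genes by histone type, green bars CHD4 peaks in WT and Gfi1-/- GMPs, and the lowest 3 rows H3K4me2 peaks in GMP, preNeu and matNeu, with bars under 0.6 kb widened to be seen. CHD4 and H3K4me2 peaks lie over genes and also between Hist1h4c and Hist1h1c, where no member lies. A WT CHD4 peak there has a fold of 33.8. Gfi1-/- CHD4 peaks are few, and preNeu has the broadest H3K4me2 peaks.

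Some promoters of H2A and H2B genes hold a motif that was not found in those of the other types. The octamer ATTTGCAT, bound by OCT1 and long known from H2B promoters, was searched on both strands from 250 bases before to 50 after the gene start in the RefSeq promoter table (GRCm38.p6), which matched 62 members with 63 promoters. It was found in 7 of 18 H2A, 7 of 17 H2B and none of the H1, H3 and H4 promoters, so in 22.2% of member promoters against 1.74% of all 32851. In the H2B promoters it stood on the gene's own strand, and in the H2A promoters on the opposite one, and 3 of the 11 distinct sites fell in the promoter windows of both an H2A and an H2B gene. Some of these sites are shown with 10 bases on each side, read along the octamer, with the octamer in capitals.
Hist1h2ae and Hist1h2bg, chr13:23571331-23571358, plus strand: tgagtcccttATTTGCATagaacctcta
Hist1h2ah and Hist1h2bk, chr13:22035781-22035808, plus strand: atttcactttATTTGCATacgaagttct
Hist1h2ab, chr13:23750949-23750976, minus strand: tgagctcctcATTTGCATaaaggcctgc
Hist1h2bb, chr13:23746634-23746661, plus strand: tgagtctcttATTTGCATaaagcctttg
Hist2h2ac, chr3:96221063-96221090, plus strand: ttgagacctaATTTGCATaaggcgttca
Hist3h2a, chr11:58954556-58954583, minus strand: agccttcctaATTTGCATatgccttacc
The CCAAT box, 5 bases on either strand, was in all 51 promoters of H1, H2A, H2B and H3 genes and in 3 of 12 H4 promoters, beside 37.4% of all promoters. TATAAA on the gene's own strand was in 30 of 63 member promoters (47.6%) and in 8.32% of all. The octamer stood in promoters of members that fell from preNeu to matNeu (Hist1h2ab, Hist1h2ae, Hist1h2bg, Hist2h2ac and Hist2h2bb) and of members that rose (Hist1h2ac, Hist1h2be and Hist3h2a).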

How the data were processed

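RNA-seq levels were deposited by the authors as TPM for 9 WT libraries. How the TPM were made is not given in the sources used here, and the sources differ: the protocol describes Tophat alignment and HTSeq counting, whereas the submitters' processing notes name kallisto 0.44.0, together with FastQC 0.11.5, MultiQC 1.6, Trimmomatic 0.36, BWA 0.7.17, MACS2 2.1.0 and the mm10 build. These tools treat reads of near-identical copies differently. The libraries were made with a stranded poly(A) mRNA kit. TPM keep no depth, so the depth is unknown and no counting interval is given. All libraries sum to the same total, 10754 to 12256 genes reached 1 TPM in each, and replicates of a cell type correlated at 0.960 or more. Peaks were deposited by the authors as 1 list per library with a fold enrichment, a -log10 q and, for CHD4, a summit position.

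TPM were tested with limma 3.58.1 (R 4.3.3) on log2(TPM + 1) with a variance trend and cell type as the only term, and the test was checked on simulated data. A count test was not used, since the values are no counts. Peaks were counted at promoters (2 kb upstream to 500 bp downstream) of genes of GENCODE M21 (GRCm38), CHD4 by summit and the others by 1 bp of overlap, with Python 3.11.15, pandas 2.3.3 and SciPy 1.17.1. The ATAC-seq lists under the preNeu and matNeu titles were identical and counted as 1, and the H3K4me3 and GFI1 lists, whose coordinates run past the ends of GRCm38, were not used here. Stretches are runs of members with at most 100 kb between neighbours.

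Named genes were the 3 most abundant members of each type, the 5 largest called changes each way per comparison, the members with a CHD4 summit in Gfi1-/- GMPs, the 3 highest CHD4 folds in WT and called genes of the lists. Members named for a shared sequence, motif or family, for an overlap or a missing peak, or beside a named gene were chosen after their values were seen. The members and lists were chosen with earlier results of these data known. Alternatives were another pseudocount, filters, scalings, fits, left-out libraries, members of mostly unique sequence, and other promoter windows and q thresholds. Summing near-identical members and taking the start nearest the start codon were added after seeing the data. One marker of the B cell list, and the sum and counts over that list, are not reported here.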

Additional observations from a re-analysis of the deposited data

How the results depend on the processing

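Members higher and lower in preNeu than in GMP, 6 and 9, were the least stable counts. The higher count was 2 with a pseudocount of 0.1, 3 with every gene above 0 in 1 library, 3 with a minimum log2 change of 1 and 3 among members with at least 50% of their 31-base stretches unique, and the lower count 5 with a filter of at least 5 TPM, 4 with size factors and 3 with quantile normalization. Leaving out 1 library at a time gave 2 to 7 higher and 5 to 10 lower. Hist1h3d, which fell from GMP to preNeu, turned to a log2 change of 0.0112 under quantile normalization (limma adjusted p = 0.981). For matNeu against GMP the higher count of 12 became 20 with size factors, 22 with quantile normalization and 7 among members of mostly unique sequence, and the lower count of 17 became 9 at 5 TPM and 6 among the latter. For matNeu against preNeu these members gave 7 higher and 5 lower in place of 13 and 14, and 9 fell at 5 TPM. The 5 TPM filter and the unique-sequence setting test fewer members by construction. Size factors and quantile normalization also moved the calls over all 13061 genes. For matNeu against GMP these went from 2976 higher and 7065 lower to 4709 and 5267, and to 4991 and 4958. The median change of all genes there went from -0.92 to -0.11 and 0.03. For preNeu against GMP the calls over all genes went from 1925 and 5781 to 3068 and 3600, and to 3299 and 3559. Apart from the restrictions, the cause of the moves was not tested. Near-identical members summed gave 5 and 8, 10 and 15, and 10 and 13 calls. Of the calls on single members, 4 of 15, 22 of 29 and 26 of 27 held in every setting in which the member was tested, in the order preNeu against GMP, matNeu against GMP and matNeu against preNeu.

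Whether the replicate numbers of the titles pair the libraries was not settled. Of 9 same-numbered pairs 1 correlated above 0.1 (range -0.0394 to 0.123), and 10 of 18 deviations correlated best with their own number. The deviations were taken from means of 3 libraries, which limits what these correlations can show. With the number as a replicate block the calls were 6 and 6, 13 and 19, and 13 and 14.

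Summed over members of mostly unique sequence, the level was 152 TPM in GMP, 141 in preNeu and 620 in matNeu, and size factors put matNeu at 1479.8 TPM over all members. At -log10 q of at least 5, H3K4me2 peaks in GMP remained at 2 member promoters (2.86%, against 25.5% of coding promoters, so below all genes and no longer above them) and ATAC-seq peaks at 34 (48.6% against 21.4%), and 6 members had a Gfi1-/- CHD4 peak over the gene start itself. With the start nearest the start codon the counts were 60, 16, 68 in each H3K4me2 list and 56. The TPM carry no depth, and each peak list is 1 library.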
